A study of Mus musculus with 8 samples.

Results

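Merging the H3K27me3 peaks of 5 lists gave 99646 regions. Of these, 2166 (2.17%) were shared by every glioma (PT) library and lay more than 5000 bp from any astrocyte (AstroEGFR) peak. Peaks of the 5 lists were pooled and joined wherever they overlapped or abutted. A joined region was retained when PT 1, PT 3 and PT 4 each contributed a peak, AstroEGFR 1 and AstroEGFR 3 contributed none, and more than 5000 bp separated it from the closest AstroEGFR peak. These are called far acquired regions here. They were chosen by the presence and absence of peaks in these same lists, so their number is a description and carries no test. Without the distance condition 3745 regions qualified, 3.76% of all regions, and the remaining 1579 are called near acquired regions.

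AstroEGFR cells (n = 2) were C57BL/6 cortical astrocytes of postnatal day 5 that lacked Ink4a/Arf and expressed, from a retrovirus, EGFR variant III, a constitutively active human receptor. PT cells (n = 3) were glioma propagating cells cultured from the tumours that such astrocytes formed in the brains of CD1 Nude mice, so they carry the same deletion and receptor. Both were profiled before passage 10 with the same H3K27me3 antibody, and the 3 input libraries were not analysed here. The study's methods describe a serum medium for astrocytes and a serum-free medium with EGF and fibroblast growth factor 2 for PT cells, so growth in a tumour and the change of medium cannot be told apart. The study describes independent astrocyte batches with the tumours that arose from them and refers to its ChIP-seq samples as biological replicates. The labels do not say which batch or animal each PT library came from.

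H3K27me3 is deposited by Polycomb repressive complex 2, whose EZH2 subunit adds methyl groups to histone H3 and whose EED subunit binds the finished mark, which lets the mark spread to neighbouring nucleosomes. Chromatin carrying it is usually transcriptionally silent. In neural cells it is best known over regulators of development and lineage choice, where it can form a narrow peak or a domain that spans many kilobases. Genes and sequences at the regions below are not given, because gene annotation and genome sequence of mm9, the build that the submitters' processing notes name, were not used here.

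The lists behind these regions were of unequal length. AstroEGFR 1 held 34021 peaks and AstroEGFR 3 held 3722, whereas PT 1, PT 3 and PT 4 held 64504, 40090 and 66279. They also fell into 2 sets, since AstroEGFR 1, PT 1 and PT 4 listed 179, 194 and 236 peaks on unplaced sequences and AstroEGFR 3 and PT 3 listed 0. The number of reads is unknown, and a region with no peak in a list may still carry the mark below the level at which peaks were called. Leaving out a list relaxes the rule, and the number of far acquired regions rose with each omission, least without AstroEGFR 3 (2378). The largest rises came without AstroEGFR 1, the longer AstroEGFR list (8803), and without PT 3, the shortest PT list (10713). The total of merged regions also changes with an omission and was not counted, so these numbers are not shares. Under the same rule with the groups exchanged, 23 regions had a peak in both AstroEGFR lists and in no PT list, of which 5 (0.00502%) lay more than 5000 bp from a PT peak. List length moves with this asymmetry. With every list limited to its 3722 strongest peaks, the length of the shortest list, the number of far acquired regions was 137. Absence and distance were then judged by the shortened AstroEGFR lists, so these regions need not be among those of the full lists. The total of merged regions in that setting was not counted, so no share is given and the fall is not a like comparison.

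The far acquired regions took a small share of each PT list. They held 2765 peaks of PT 1 (4.29% of its list), 2684 of PT 3 (6.69%) and 2838 of PT 4 (4.28%). The rule requires a peak of each PT library in every region, which holds these counts close to each other. The larger share in PT 3 therefore reflects its shorter list, and PT 3 held the fewest of these peaks. The regions covered 5.46 Mb in total. Peaks of PT 1 filled 4.27 Mb of this length (78.1%), those of PT 4 filled 3.97 Mb (72.6%) and those of PT 3 filled 2.56 Mb (46.8%). PT 3 was thus the library with the least marked length in these regions, and it covered the fewest bases of the 3 in 1290 regions and the most in 376. This was not particular to them. PT 3 also filled the smallest share of near acquired regions (49.4%) and of regions marked in all PT and in AstroEGFR cells (44.9%). Its whole list covered 39.2 Mb, against 87.9 Mb for PT 1 and 84.6 Mb for PT 4.

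The regions were mostly a few kilobases wide or less. The narrowest spanned 623 bp, the median 1966 bp and the widest 43015 bp, with 10% of regions above 4363.5 bp. The median depended on the merging and on the libraries required, being 3647 bp when peaks up to 1000 bp apart were joined, and 1309 bp without PT 1 and 1203 bp without PT 3. In 1268 regions (58.5%) each PT library contributed exactly 1 peak. At least 1 base lay in peaks of all 3 PT libraries in 1933 regions (89.2%), with a median of 558 such bases over all 2166. In the other 233 regions the PT peaks were joined only through overlapping pairs, and no base was marked in all 3. Near acquired regions were alike in this respect, at 89.9% with a common base and a median of 539 bases, and had a median width of 1758 bp and a maximum of 11340 bp. The 7245 regions that were marked in every PT library and also in at least 1 AstroEGFR library were broader, with a median of 3942 bp. Widths of these classes are not independent of the rule, because AstroEGFR peaks add to the merged width of the last class. A near acquired region also has limited room to widen, since one that reached its AstroEGFR peak would leave that class.

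The gap to the closest AstroEGFR peak ran from 5010 bp to 14376542 bp with a median of 25829.5 bp. It exceeded 10000 bp in 1696 regions (78.3%), 50000 bp in 744 (34.3%), 100000 bp in 435 (20.1%) and 1000000 bp in 21 (0.970%). The number of regions fell off gradually with distance, as the histogram of gaps shows. The closest peak belonged to AstroEGFR 1 in 1908 regions (88.1%) and to AstroEGFR 3 in 258 (11.9%), and median gaps to each list alone were 28315 bp and 210318 bp. The longer AstroEGFR list therefore set the distance in most cases.

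**Figure D1:**
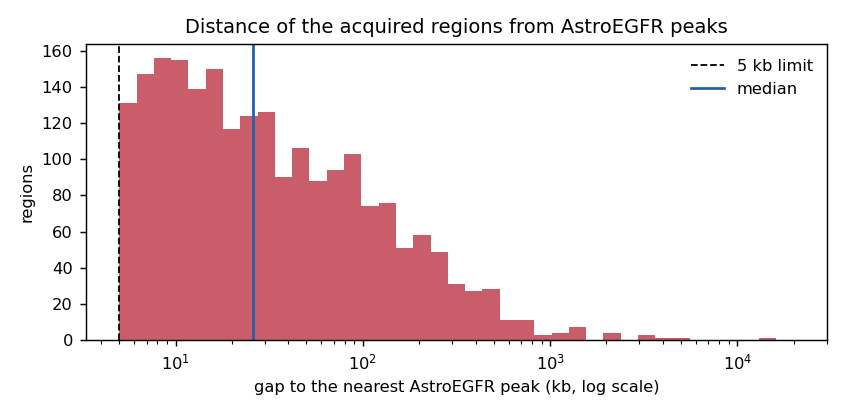
Number of far acquired regions (vertical axis) by gap to the closest AstroEGFR peak in kb on a log axis, with a dashed line at the limit of 5 kb and a solid line at the median. Counts decline gradually with distance, and 21 regions lie beyond 1000000 bp.

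The limit of 5000 bp divided a continuous range. Just inside it were regions on chromosome 2 from 167032320 to 167037525, on chromosome 9 from 43269699 to 43273101 and on chromosome 13 from 59822309 to 59824592, with gaps of 5010, 5030 and 5038 bp. Just outside it were regions on chromosome 2 from 157533041 to 157534195, on chromosome 15 from 99116826 to 99118401 and on chromosome 10 from 68838225 to 68840782, with gaps of 4998, 4990 and 4980 bp. Their widths were 5206, 3403 and 2284 bp inside and 1155, 1576 and 2558 bp outside.

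Peak strength was compared by rank, because the score in each list is comparable only within that list. For every region the best-scoring peak of a PT library was given its percentile in the list of that library, which is the share of peaks with an equal or lower score. The rule did not use this measure directly, although it did use the extent of peaks. The median percentile of the far acquired regions was 69.9 for PT 1, 53.5 for PT 3 and 66.2 for PT 4. In PT 3 the typical region was thus close to the middle of its list, and in PT 1 and PT 4 it was above the middle.

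Far acquired regions ranked slightly above near acquired regions in each library, by 6.17 percentile points in PT 1, 1.07 in PT 3 and 2.40 in PT 4. The mean difference was 3.21 ± 2.65 points (SD, n = 3; higher in 3 of 3 libraries). An exact paired permutation test over the PT libraries, two-sided, gave p = 0.25, the smallest value that 3 libraries allow, so no difference could be called in this design. When regions were defined again with 1 PT library left out, the mean difference was -0.475 without PT 1, -0.191 without PT 3 and 2.79 without PT 4. Its direction thus depended on which libraries were required. Leaving out a library changed both the set of regions and the libraries averaged, and these parts were not separated. Covered length per region was higher by 178.5 bp for PT 1, by 28.5 bp for PT 3 and by 70.5 bp for PT 4, a mean of 92.5 ± 77.4 bp (SD, n = 3; exact paired permutation p = 0.25). The rule limits how far a near acquired region can extend, so covered length is not independent of it and no conclusion is drawn.

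A wider difference separated the far acquired regions from the 7245 regions marked in all PT and in AstroEGFR cells. The latter had median percentiles of 89.5, 74.4 and 89.7 in PT 1, PT 3 and PT 4. The far acquired regions stood lower by a mean of -21.3 ± 1.96 points (SD, n = 3; higher in 0 of 3 libraries), again with p = 0.25 in the exact paired permutation test. Their scores reached 3100, the value shared by many of the strongest peaks of the lists, in 30 regions for PT 1, 2 for PT 3 and 22 for PT 4. Among the 7245 regions the corresponding numbers were 982, 74 and 898. The best peak was chosen from more peaks in that class, where AstroEGFR peaks can join PT peaks. More than 1 peak of PT 1, PT 3 and PT 4 lay in 45.6%, 45.3% and 49.4% of the 7245 regions, against 21.7%, 18.1% and 23.4% of far acquired regions. With percentiles averaged over peaks by their length, the mean difference was -18.0 ± 3.71 points (SD, n = 3), and it was -14.1 in PT 3.

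**Figure D2:**
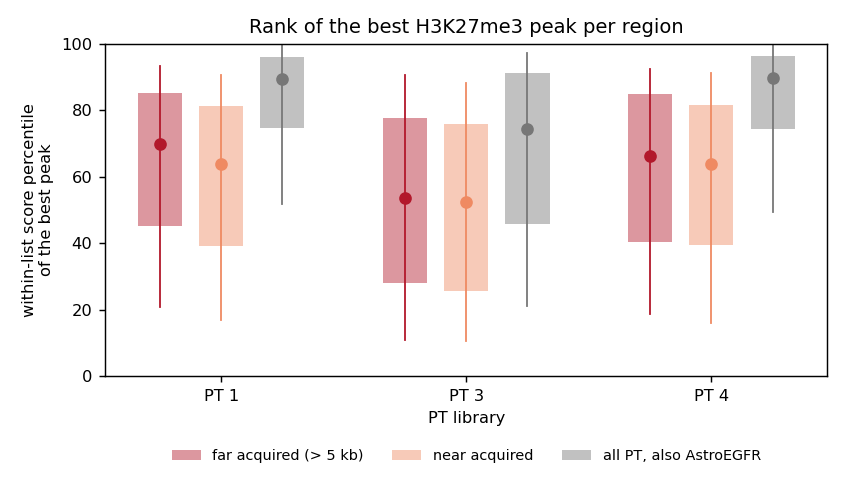
Within-list percentile of the best peak (vertical axis, %) in each PT library for far acquired regions, near acquired regions and regions marked in all PT and in AstroEGFR cells. Points are medians, boxes run from the lower to the upper quartile and lines from the 10 to the 90 percentile of regions, and the medians of the first class are 69.9, 53.5 and 66.2.

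Rank differed little with distance beyond the limit. In the 470 regions with gaps up to 10000 bp the median percentiles were 67.8, 51.7 and 67.4 in PT 1, PT 3 and PT 4. In the 435 regions with gaps above 100000 bp they were 68.2, 57.1 and 68.7. Median widths of these sets were 1888.5 bp and 1922 bp. Sets with gaps up to 50000 bp and up to 100000 bp lay between these. In order of distance, medians did not rise steadily in PT 1 (67.8, 71.4, 72.7 and 68.2) or PT 4 (67.4, 65.8, 66.4 and 68.7). Widths did not either, at 1888.5, 2011.5, 2003 and 1922 bp. In PT 3 the median rose with each step, at 51.7, 53.2, 54.2 and 57.1.

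Strength was uneven between the PT libraries. The best peak was in the upper part of all 3 lists, at a percentile of 50 or more, in 663 regions (30.6%), compared with 27.9% of near acquired regions and 62.8% of the regions shared with AstroEGFR cells. At a percentile of 90 or more the number fell to 44 (2.03%), compared with 1.58% and 18.4%. A best peak below percentile 10 in at least 1 PT library was found in 382 of the 2166 regions (17.6%), compared with 316 of the 1579 near acquired regions and 6.51% of the regions shared with AstroEGFR cells. The lowest percentile of the 3 belonged to PT 3 in 1059 regions, to PT 4 in 589 and to PT 1 in 518.

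PT 1 and PT 4 ranked these regions more alike than either did with PT 3. Across the 2166 regions Spearman's rho was 0.55 between PT 1 and PT 4, 0.15 between PT 1 and PT 3 and 0.17 between PT 3 and PT 4. The same pair was the most alike in the other classes. In the same order, rho was 0.51, 0.11 and 0.10 in near acquired regions. It was higher for every pair in regions shared with AstroEGFR cells, at 0.83, 0.39 and 0.41. Regions of one run share their surroundings and their libraries, so these values are descriptions. PT 1 and PT 4 also belong to the same set by unplaced sequences, and the part of that feature was not tested. In 57 regions (2.63%) PT 1 and PT 4 were both at a percentile of 90 or more while PT 3 was below 50, a share close to the 2.66% of near acquired regions and below the 6.32% of regions shared with AstroEGFR cells. The opposite arrangement, PT 3 high and the other two low, was found in 14 (0.646%), beside 1.27% and 0.400% in those classes.

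The strongest shared region lay on chromosome 6 from 72123348 to 72166362. It spanned 43015 bp, was also the widest, and was 47267 bp from the closest AstroEGFR peak. PT 1 peaks covered 40467 bp of it, PT 3 peaks 14085 bp and PT 4 peaks 42882 bp, and the best peaks stood at percentiles 99.9, 99.3 and 99.9. The PT 3 list broke this domain into 8 peaks, PT 1 into 7 and PT 4 into 2. A second region from 72167238 to 72193860 followed after 875 bp, 26623 bp wide, with its lowest percentile in PT 3 at 96.3. Both formed a block that was nearly continuous in PT 1 and PT 4 and discontinuous in PT 3.

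A comparable block was found on chromosome 7. Regions from 103920241 to 103944547, from 103945756 to 103981265 and from 103981652 to 104013485 were 24307, 35510 and 31834 bp wide and were separated by 1208 and 386 bp. The closest AstroEGFR peaks were 116870, 80152 and 47932 bp away. In the middle region PT 1 covered 32944 bp, PT 3 covered 10203 bp and PT 4 covered 35372 bp, with percentiles of 99.9, 97.9 and 99.9. The flanking regions held PT 1 and PT 4 peaks of the same percentile, but PT 3 stood at 74.0 in the first and 86.6 in the third. These regions and the pair on chromosome 6 were the 5 widest of all. Here too PT 4 peaks continued beyond the block. Counted from the first region of the run, the third region ended at 145247. A later PT 4 peak from 188730 to 204107 took in AstroEGFR 1 peaks from 193179 to 194122 and from 195023 to 195781.

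PT 3 was the leading library at other sites. On chromosome 10 from 84212512 to 84235637, a region of 23126 bp, PT 3 covered 23095 bp in 2 peaks, with a best score of 3100. PT 1 covered 19478 bp in 6 peaks and PT 4 covered 19546 bp in 8. Their percentiles were 96.5 and 97.6, and an AstroEGFR 1 peak lay 9259 bp away. The other region where PT 3 reached a score of 3100 was on chromosome 7 from 86641498 to 86661673, with 19955 of 20176 bp covered by PT 3, 9111 bp by PT 1 and 10226 bp by PT 4. PT 3 also covered the most of the adjoining region from 86675667 to 86692205, with 16015 bp covered by PT 3, 7606 bp by PT 1 and 3689 bp by PT 4. The library in which a domain was most complete therefore differed between sites.

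**Figure D3:**
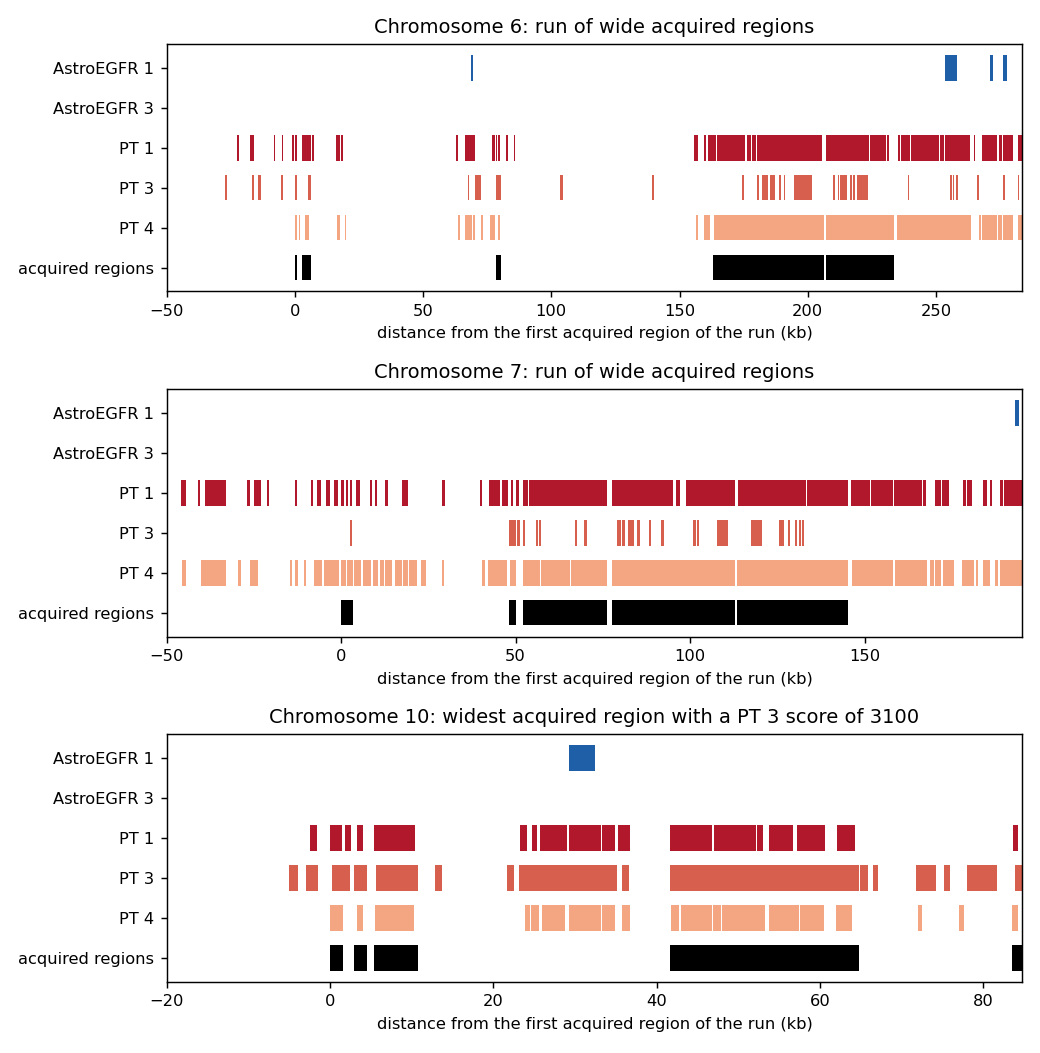
Peaks of each library (rows, one bar per peak) and far acquired regions (black) against distance in kb from the first region of 3 runs, on chromosomes 6, 7 and 10. On chromosomes 6 and 7 the wide regions are almost filled by PT 1 and PT 4 and broken up in PT 3, whereas on chromosome 10 PT 3 covers 23095 bp of the 23126 bp region.

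Narrower regions also ranked high in every PT library. A region of 4598 bp on chromosome 9 from 63865064 to 63869661 had a best score of 3100 in both PT 1 and PT 4 and of 1272 in PT 3, and lay 146410 bp from any AstroEGFR peak. PT libraries covered 4395, 4199 and 4527 bp of it, so all 3 marked nearly its whole length. On chromosome 5 from 34060585 to 34072035, a region of 11451 bp had a lowest percentile of 98.3, with 10337 bp covered by PT 1, 4440 bp by PT 3 and 11097 bp by PT 4. The rest of the 10 highest were on chromosome 13 from 63669919 to 63675861, on chromosome 7 from 74058365 to 74062896 and from 120317112 to 120329300, and on chromosome 5 from 112672852 to 112681587. Their lowest percentiles were 96.5, 95.6, 95.4 and 95.5, and their widths ran from 4532 to 12189 bp.

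None of the 5 most remote regions was among the 10 highest by lowest percentile. The one farthest from an AstroEGFR peak was on chromosome X from 34655099 to 34659478, with a gap of 14376542 bp. Its best peaks stood at percentiles 95.6 in PT 1 and 97.3 in PT 4 but 15.8 in PT 3, where a peak of 636 bp was all that marked it. The next, on chromosome 7 from 64762442 to 64766724 with a gap of 4754328 bp, had no base common to all 3 PT libraries. Then came chromosome 6 from 77192926 to 77196210 and a pair on chromosome 4, from 76094144 to 76095138 and from 77856295 to 77857666, with gaps of 3934604, 3320078 and 3240891 bp. Their lowest percentiles were 72.8, 52.2 and 55.1.

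Most far acquired regions had further PT peaks nearby. Within 5 kb of its edges a region had another peak of PT 1 in 82.0% of cases, of PT 3 in 62.5% and of PT 4 in 79.6%. Within 20 kb these shares were 93.8%, 86.1% and 93.6%, compared with 40.5% for AstroEGFR 1 and 10.3% for AstroEGFR 3. A further PT peak within 5 kb was more frequent at near acquired regions, at 96.1%, 79.6% and 95.8%. It was also more frequent at regions shared with AstroEGFR cells, at 91.6%, 72.2% and 90.6%. Far acquired regions were thus seldom isolated in the PT lists, but their shares were below those of both other classes in each of the 3 libraries. These differences were not tested. AstroEGFR neighbours were limited by the rule and by the length of those lists.

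Some far acquired regions lay close to each other. Spacing was not measured in the other classes, and joining only peaks that touch can split 1 marked stretch into several regions. Of 2146 neighbouring pairs on the same chromosome, 240 were within 1000 bp and 434 within 5000 bp, and the median distance was 117714 bp. Joined across gaps of up to 100 kb, the regions formed 1124 runs. Single regions made up 698 of these (32.2% of regions), whereas 426 runs of 2 or more held 1468 regions (67.8%). Runs of 5 or more numbered 74 and held 560 regions (25.9%), and 13 runs of 10 or more held 190. The regions fell into 1252 intervals between consecutive AstroEGFR peaks, of which 799 held 1 region and 4 held 12.

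The longest run was on chromosome 9 from 61319094 to 61844368, with 21 regions in 525275 bp. Their widths ran from 999 to 4870 bp with a median of 2484 bp, and their gaps to AstroEGFR peaks from 5377 to 33802 bp. Their lowest percentile over the PT libraries ran from 0.384 to 78.8 with a median of 36.8, beside 32.9 over all far acquired regions. Peaks covered 51.8% of the run in PT 1, 24.6% in PT 3 and 49.1% in PT 4, and the 21 regions amounted to 10.6% of it. AstroEGFR cells were not without peaks there, since AstroEGFR 1 held 38 peaks (7.74% covered) and AstroEGFR 3 held 4 (0.548% covered). The regions of this run thus lay between scattered astrocyte peaks and made up only a part of the stretches marked in PT cells there. Peaks of PT 1 and PT 4 covered about as much of the segment as they left uncovered, and PT 3 peaks less.

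**Figure D4:**
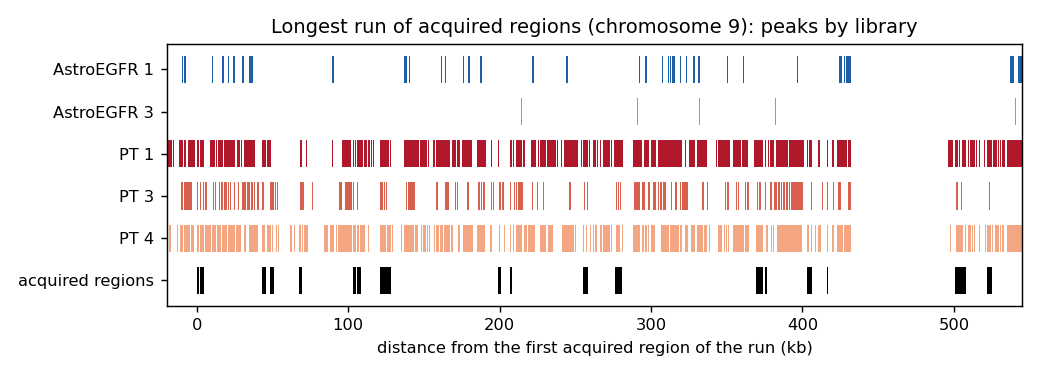
Peaks of each library (rows, one bar per peak) and the 21 far acquired regions (black) against distance in kb from the first region of the longest run, on chromosome 9. PT peaks occur in blocks parted by stretches with few or no peaks and cover 51.8% of the run in PT 1, 24.6% in PT 3 and 49.1% in PT 4, whereas AstroEGFR 1 has 38 scattered peaks and AstroEGFR 3 has 4.

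Other runs differed in how much astrocyte signal they held. On chromosome 15 from 73820208 to 73919449, 12 regions took up 44.5% of the run and no AstroEGFR peak was present, with 41.4% covered in PT 1, 19.9% in PT 3 and 49.3% in PT 4. On chromosome 14 from 76596336 to 76717265, 15 regions lay in a run that the 3 PT libraries covered almost equally, at 33.2%, 34.6% and 36.1%, beside 2 peaks of AstroEGFR 1. On chromosome 10 from 83288020 to 83628371, 19 regions were found with 3 peaks of AstroEGFR 1 and 0 of AstroEGFR 3. Chromosome 7 held runs of 19 regions from 81035678 to 81413836 and of 18 from 74018974 to 74341304. PT 3 covered the smallest share of both, at 13.8% and 16.9%.

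Chromosome 7 carried more far acquired regions than any other, 249 (11.5%). It held 6.71% of near acquired regions, 7.51% of all regions present in the 3 PT lists and 7.14% of all merged regions. Its share of the peaks of single lists was 7.97% in PT 1, 6.35% in PT 3 and 7.74% in PT 4, and 5.89% and 5.83% in AstroEGFR 1 and 3. The median percentile of its regions was 77.6 in PT 1 and 75.4 in PT 4 but 50.8 in PT 3, and 14 of the 57 regions that were high in PT 1 and PT 4 and low in PT 3 were on this chromosome. The corresponding counts were 6 of 42 in near acquired regions and 39 of 458 in regions shared with AstroEGFR cells. Regions on a chromosome are not independent, so the shares carry no test.

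Chromosome 10 followed with 247 regions (11.4%), below its 13.5% of all regions in the 3 PT lists. The rank of these regions in PT 3 was higher than elsewhere, with a median percentile of 69.2 against 53.5 over all far acquired regions, and was close to that in PT 1 (69.8) and above that in PT 4 (59.7). The list of PT 3 also placed more of its peaks on this chromosome (14.9%) than those of PT 1 (9.29%) and PT 4 (8.75%), and AstroEGFR 1 placed 11.7% there and AstroEGFR 3 2.93%. None of the 57 regions that were high in PT 1 and PT 4 alone was on chromosome 10, whereas 4 of the 14 that were high in PT 3 alone were. Among near acquired regions these counts were 1 of 42 and 12 of 20. Among regions shared with AstroEGFR cells they were 28 of 458 and 9 of 29, so the skew was not particular to far acquired regions.

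Other chromosomes departed from the distribution of shared PT regions in both directions. Relative to the share of all regions in the 3 PT lists, the share of far acquired regions was higher on chromosome 13 with 109 regions (5.03% against 3.48%), chromosome 16 with 58 (2.68% against 1.87%), chromosome 14 with 71 (3.28% against 2.32%), chromosome 15 with 122 (5.63% against 4.47%) and chromosome 9 with 202 (9.33% against 7.95%). It was lower on chromosome 1 with 60 regions (2.77% against 5.13%), chromosome 2 with 120 (5.54% against 7.88%), chromosome 12 with 56 (2.59% against 3.63%) and chromosome 4 with 96 (4.43% against 5.90%). Against all merged regions, chromosome 16 was instead lower (2.96% of them) and chromosome 13 only slightly higher (4.66%), while the other chromosomes named kept their direction. The regions in the 3 PT lists include those shared with AstroEGFR cells. AstroEGFR 1 placed 2.77% of its peaks on chromosome 13 and 2.12% on chromosome 16, and the part of this in the shares was not tested. AstroEGFR 3 placed 13.7% of its peaks on chromosome 12, and the part of this in the lower share of chromosome 12 was not tested. Chromosome X held 4 regions, and chromosome Y and the unplaced sequences held 0.

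**Figure D5:**
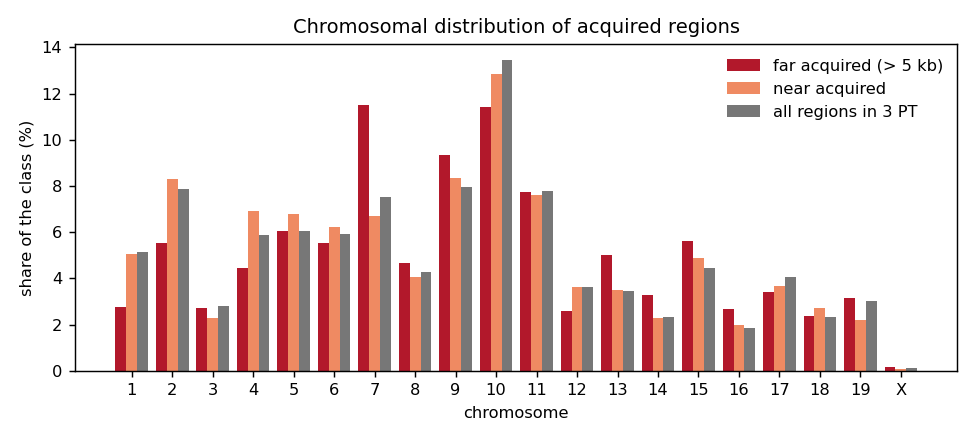
Share (%) of far acquired regions, near acquired regions and all regions present in the 3 PT lists on each chromosome. Chromosome 7 takes 11.5% of the first class against 6.71% and 7.51% of the others, and chromosome 1 takes 2.77% against 5.07% and 5.13%.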

How the data were processed

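H3K27me3 ChIP-seq peak lists of 2 AstroEGFR and 3 PT libraries were read as deposited. The authors called peaks per library, with Bowtie 0.12.9, MACS 1.4.1 and mm9 named in the submitters' processing notes, and deposited 1 score per peak, whose scale the lists do not state. The score was used only as a rank within its list. Read depth is not given in the sources used here, so no interval or detection limit was computed. Positions are 1-based. A percentile is the share of peaks in a list with a score at or below that of the peak.

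Peaks were merged, classified and measured with Python 3.11.15, pandas 2.3.3, numpy 2.4.6 and scipy 1.17.1, and figures drawn with matplotlib 3.10.9. The code was tested on simulated lists, and bedtools 2.31.1 gave the same 99646 regions and 2166 members. Class medians were compared over PT libraries by an exact sign-flip permutation test. Regions named are the 10 with the highest lowest percentile over PT lists, the 5 widest, the 5 farthest from AstroEGFR peaks, 3 on either side of the distance limit and the longest run. Other runs, and the neighbours of these regions, were named after their values were seen. The regions and these choices were made with earlier results of these data known.

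Alternatives changed the distance, score, merging, cover, number of peaks, chromosomes and libraries. Counts of genes and sequence composition, also planned, were not run, because annotation and sequence of mm9 were not used here.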

Additional observations from a re-analysis of the deposited data

How the results depend on the processing

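The number of far acquired regions (2166) was within 1.5 times under 10 of 19 alternatives and moved under 9. It was 744 with a gap over 50000 bp, 1421 with scores of at least 100, 1279 with the upper 50% of each list by score, 663 with the upper 50% of the PT lists only and 137 with each list limited to its 3722 strongest peaks. Where AstroEGFR lists were shortened, the peaks left out did not count against a region. The total of merged regions under shortened or omitted lists was not counted, so the numbers under such lists are not shares. Leaving out a library gave 2378 to 10713 regions, with 8803 without AstroEGFR 1 and 10713 without PT 3. Comparisons within the 2 sets of lists, chosen after seeing the data, gave 11203 regions for PT 1, PT 4 and AstroEGFR 1 and 33659 for PT 3 and AstroEGFR 3, with fewer libraries required to agree. With the replicate numbers as pairs (replicate block, numbers 1 and 3), 3228 regions qualified, which equals the number without PT 4 because PT 4 has no partner. The numbers were not shown to pair the libraries. The median width (1966 bp) was 3647 bp when peaks up to 1000 bp apart were merged, and 1203 to 2512 bp when a library was left out. The difference in percentile between far and near regions (3.21) kept its direction under 6 of 8 alternatives and was -0.475 without PT 1 and -0.191 without PT 3, over a range of -0.475 to 2.79 when a PT library was left out. The causes of these shifts were not tested beyond the number of libraries and peaks that each alternative removes by construction. With 3 PT libraries no difference could be called, and with unknown depth a missing AstroEGFR peak sets no limit on the mark. Outliers were not sought, as groups held 2 and 3 libraries. Alternatives that need gene positions or sequence were not run.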
